A study of Homo sapiens with 36 samples.

Results

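The genes described here are 36 genes of the ATF4 stress program, amino acid supply and tRNA charging, taken by name from 66366 named genes in each library. They comprise 6 transcription factors and their regulators, 5 other stress effectors, 9 enzymes of amino acid and one-carbon synthesis, 5 amino acid transport genes and 11 cytosolic tRNA synthetases. RNA was sequenced in 36 libraries from 4 established human non-small cell lung cancer lines, with 3 libraries in each of 12 groups. By their labels, H3255 carries EGFR L858R, H1975 carries EGFR L858R/T790M, H820 carries EGFR Ex19del/T790M and A549 has WT EGFR. Each line received 3 µM MinE07, an EGFR-directed aptamer (a short RNA that folds to bind its target), 3 µM C36, a control aptamer in an extended form, or vehicle, which was DPBS with magnesium, for 24 h. All groups were in treatment medium with 1% serum, pyruvate, L-glutamine and non-essential amino acids. H3255, H1975 and H820 were kept in RPMI and A549 in DMEM, so the effects of line and medium cannot be told apart there. Each genotype is represented by 1 line. The series record calls the experiments biologically independent, and no source used here says that libraries with the same number were made together.

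Levels are FPKM, fragments per kilobase of gene length scaled to library size, so levels of different genes are on a per-length scale. Changes are differences of log2(FPKM + 0.5), which understates the change of genes at low FPKM. A gene was tested in a line where its mean over the 9 libraries was at least 1 FPKM, and it was called where the adjusted p in limma was under 0.05. In H3255, 34 of the 36 genes were tested, as NUPR1 and VLDLR lay at 0.0388 and 0.0329 FPKM. All 36 were tested in H1975, where the lowest, VLDLR, had 1.29 FPKM. In H820, 34 were tested, as CHAC1 lay at 0.428 and SLC6A9 at 0.640 FPKM, and the lowest gene tested was SLC7A11 at 1.36 FPKM. In A549, 35 were tested, as NUPR1 lay at 0.217 FPKM. The files give no counts. Libraries lay between 0.590 and 1.384 times the median depth, and the shallowest library was 1 of the vehicle group of H3255 (0.590 to 0.997, against 0.889 to 1.069 with MinE07 and 0.762 to 1.150 with C36). The epithelial genes EPCAM, KRT8, KRT18 and KRT7 were present in all lines, with EPCAM lowest in A549 (4.85 to 6.71 FPKM), and markers of other cell types were mostly near 0. Among 3 leukocyte, 3 fibroblast and 2 endothelial genes, CD14 reached 2.16 FPKM and COL1A1 6.46 FPKM, both in H1975, and the others stayed at or below 0.523 FPKM in every library.

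ATF4 is a bZIP transcription factor whose mRNA is translated more efficiently when the initiation factor eIF2α is phosphorylated, as happens when amino acids are short or the endoplasmic reticulum is stressed. The protein dimerises with C/EBP family members and binds C/EBP-ATF response elements at genes for amino acid synthesis, amino acid uptake and tRNA charging. Its target DDIT3 (CHOP) is a partner factor, and TRIB3 is a pseudokinase that restrains ATF4. In EGFR-mutant lung cancer cells, EGFR signalling feeds growth pathways that also regulate amino acid metabolism. Levels of ATF4 mRNA do not report the level of the protein.

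The core of the C/EBP-ATF response element, TGATGNAA, was looked for on both strands of the RefSeq promoters of GRCh38.p14, each 300 bases from 250 before to 50 after a start. A promoter was matched for 30 of the 36 genes. NUPR1, PSPH, SHMT2, PYCR1, SLC7A11 and YARS1 had no entry. The core was found for 11 of the 30 (36.7%), against 4.46% of 27305 genes with a promoter and 3.62% of 35116 promoters. The genes were chosen as genes of the ATF4 program, so this excess is not independent support for control by ATF4. It was found for 7 of 10 tRNA synthetases of the list, for 2 of 4 transport genes (SLC3A2 and SLC7A1), for 1 of 6 synthesis enzymes (ASNS), for 1 of 5 stress effectors (CHAC1) and for 0 of 5 transcription factors and regulators. The windows of the synthetases, ASNS and CHAC1 are shown because the results below turn on these genes. Each is read on the strand that carries the core, with the core in capitals.
CHAC1: cctggcaggagTGATGCAAcggcaggggag
ASNS: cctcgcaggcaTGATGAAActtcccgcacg
CARS1: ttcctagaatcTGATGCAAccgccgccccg
AARS1: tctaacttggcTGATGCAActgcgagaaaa
MARS1: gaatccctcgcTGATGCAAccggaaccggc
GARS1: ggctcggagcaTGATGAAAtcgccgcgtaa
TARS1: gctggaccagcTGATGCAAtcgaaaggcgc
IARS1: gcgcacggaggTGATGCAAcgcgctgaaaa
NARS1: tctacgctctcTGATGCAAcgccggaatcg

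On GRCh38.p14 these windows are chr15:40953251-40953280 (CHAC1, minus strand), chr7:97872458-97872487 (ASNS, minus strand), chr11:3057407-3057436 (CARS1, plus strand) and chr16:70289675-70289704 (AARS1, plus strand). The others are chr12:57488053-57488082 (MARS1, minus strand), chr7:30594834-30594863 (GARS1, minus strand), chr5:33440956-33440985 (TARS1, minus strand), chr9:92293692-92293721 (IARS1, plus strand) and chr18:57621804-57621833 (NARS1, minus strand). In the 6 synthetase genes other than AARS1 that had the core, it lay within 33 bases of the annotated start, and in AARS1 it lay 187 bases upstream. The variant TGATGCAA was in 6 of these 7 synthetase windows and TGATGAAA in GARS1. A match is a description of the letters and not evidence of binding.

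In vehicle, the lines differed widely in these genes, with ATF4 itself highest in A549. ATF4 was at 189, 180 and 180 FPKM in A549, 144, 138 and 151 in H3255, 90.2, 90.2 and 87.7 in H1975 and 65.9, 62.0 and 63.9 in H820. The 4 lines did not overlap in that order. DDIT3, which encodes the stress factor CHOP, spread less: it was at 16 to 17.0 FPKM in H1975, 12.1 to 13.8 in H3255, 10.6 to 12.5 in A549 and 10.5 to 11.9 in H820, and H3255 overlapped A549, which overlapped H820.

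The 36 genes were compared line by line in vehicle with the mean of the other 3 lines. Line differences were the rule among all genes: of 14572 tested, 87.8% were called for H3255, 84.4% for H1975, 85.8% for H820 and 86.4% for A549, beside 34, 31, 34 and 33 of the 36. A549 was highest in amino acid exchange. SLC7A11, the cystine/glutamate antiporter, was at 21.5, 26.3 and 25.3 FPKM there against at most 3.77 in any vehicle library of another line (log2 difference 3.00, SE 0.04). SLC7A5, a large neutral amino acid transporter, and its partner chain SLC3A2 were at 388 to 400 and 265 to 271 FPKM in A549, with log2 differences of 2.83 and 2.54. At the low end in A549 were NUPR1, a small stress-induced nuclear protein (-1.54), the serine phosphatase PSPH (-0.87) and the secreted glycoprotein STC2 (-0.78). NUPR1 was lower still in H3255 (0.00692 to 0.0205 FPKM, against 0.148 to 0.238 in A549). PSPH in A549 (14.8 to 14.9 FPKM) overlapped H820 (14.2 to 14.8), and STC2 (7.31 to 7.96 FPKM) overlapped H3255 (7.18 to 7.87).

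H3255 had the highest PSPH, at 69.4 to 72.3 FPKM (log2 difference 2.08), with CHAC1, a glutathione-degrading enzyme, at 5.87 to 6 FPKM (1.56) and asparagine synthetase, ASNS, at 33.0 to 34.5 FPKM (1.28), below A549 at 38.1 to 43.2 FPKM. Its DDIT4, an inhibitor of mTORC1, was at 10.2 to 11.3 FPKM (-2.88), and VLDLR (-2.44) and NUPR1 (-2.13) were near 0. H820 had the lowest ASNS of the 4 lines, at 3.53 to 3.70 FPKM (-2.81), and was low for CHAC1 (-2.16) and SLC7A11 (-1.92). NUPR1 reached 7.80 to 8.57 FPKM in H820 (3.30), and CTH, which makes cysteine, reached 6.15 to 6.63 FPKM (1.16). VLDLR was at 2.75 to 3.06 FPKM there (1.16), below A549 at 3.25 to 3.38 FPKM.

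H1975 departed least from the mean of the other lines at both ends. Its glycine transporter SLC6A9 (1.28), the mitochondrial serine hydroxymethyltransferase SHMT2 (1.14) and STC2 (1.01) were highest relative to the other lines. CEBPB, a bZIP partner of ATF4 (-0.89), ATF5 (-0.79) and the mitochondrial folate enzyme MTHFD2 (-0.70) were lowest relative to the mean of the other lines. CEBPB was lower still in H820 (13.9 to 15.3 FPKM, against 19.3 to 21.2 in H1975). MTHFD2 was lower still in H3255 (20.9 to 21.9 FPKM, against 22.0 to 22.5). For H1975 the median over all genes was 0.142 as deposited and -0.022 after rescaling by medians of ratios, a shift larger than 0.1 that bears on its small differences. Of all genes called there, the higher share went from 61.4% to 48.6% with the rescaling, and among the 36 genes it went from 15 of 31 to 15 of 36.

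**Figure D1:**
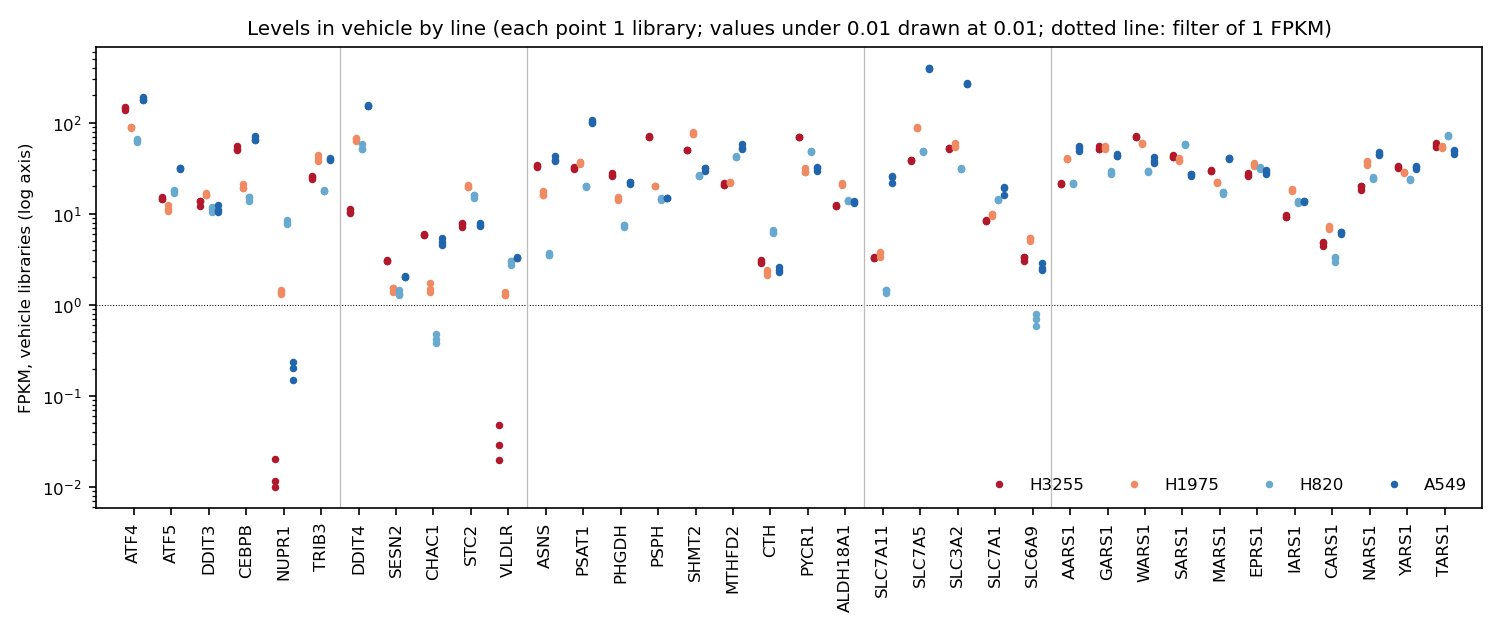
Levels of the 36 genes in vehicle, by line. The vertical axis is FPKM on a log scale, each point is 1 library, grey lines separate the 5 role groups and the dotted line marks 1 FPKM. SLC7A11, SLC7A5 and SLC3A2 stand highest in A549, ASNS is lowest in H820, and NUPR1 is highest in H820.

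The contrast of MinE07 with C36 asks what the EGFR aptamer changes beyond a control aptamer. In H3255 most of the 36 genes moved, and most of those moved up. Of 34 tested, 20 rose and 3 fell with MinE07 (67.6% called), where 36.7% of all 13429 tested genes were called, 16.6% higher and 20% lower. Their median log2 change was 0.17, against -0.01 over all genes tested. The rises were led by SLC6A9, CHAC1 and ASNS, and the 3 that fell were SLC7A11, TRIB3 and ATF5.

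ATF4 mRNA rose modestly in H3255. It was at 187, 186 and 190 FPKM with MinE07, 165, 164 and 162 with C36, and 144, 138 and 151 with vehicle. The 3 treatments did not overlap, and MinE07 exceeded C36 by 0.20 on the log2 scale (SE 0.03, adjusted p = 0.00134). The other factors of the group did not follow it. ATF5, a related bZIP factor, fell by 0.24, from 15.9, 16.1 and 16.2 FPKM with C36 to 13.8, 13.1 and 13.6 with MinE07. TRIB3 fell by 0.28, from 29.6 to 30.4 FPKM with C36 to 22.5 to 26.3 with MinE07, but vehicle (24.2 to 25.8 FPKM) lay inside the MinE07 range. DDIT3 was at 13.5, 15.2 and 14.3 FPKM with MinE07 against 16, 15.7 and 16.2 with C36, a difference of -0.15 that was not called (adjusted p = 0.055). Vehicle, at 12.1 to 13.8 FPKM, overlapped MinE07 and lay below C36. In a limma fit of all 36 libraries, MinE07 was called lower than C36 for DDIT3 (adjusted p = 0.0413). There C36 was called higher than vehicle (0.27, adjusted p = 0.0086), as were 1.7% of all genes. CEBPB overlapped between the groups.

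Among the other stress effectors, 3 of 4 tested genes rose. CHAC1 was at 10.1, 11.8 and 11.5 FPKM with MinE07, 6.17, 6.54 and 7.52 with C36, and 5.90, 6 and 5.87 with vehicle. All MinE07 libraries lay above all libraries of both controls, and the change from C36 was 0.68 (SE 0.07, adjusted p = 5.99e-05), a 1.60-fold rise on the log2(FPKM + 0.5) scale. DDIT4 was at 13.6, 16.4 and 15.2 FPKM with MinE07 against 10.6, 12 and 11.2 with C36, again without overlap (0.41, SE 0.07). SESN2, which inhibits mTORC1 when leucine is short, rose by 0.22, from 3.38 to 3.55 FPKM to 3.71 to 4.41. Its call was lost without MinE07 replicate 2 (adjusted p = 0.0504). The files list a further entry for SESN2 whose median was 101% of the gene's, and summing the entries kept the call. STC2 was level between the groups (7.81 to 8.06 against 7.61 to 8.25 FPKM).

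The synthesis enzymes moved in 1 direction where they were called: 6 of 9 rose and 0 fell. ASNS was at 56.2, 62.5 and 59.8 FPKM with MinE07, 39.3, 40.2 and 40.1 with C36, and 33.0, 34.5 and 33.7 with vehicle. The 3 groups were fully separate, and the change from C36 was 0.57 (SE 0.04, adjusted p = 2.92e-06), a 1.49-fold rise on that scale. The serine pathway rose at each of its steps. PHGDH, which commits 3-phosphoglycerate to serine, went from 31.0, 31.0 and 31.7 FPKM to 38.6, 40.2 and 41.6 (0.36, SE 0.04). PSAT1, the aminotransferase of the next step, went from 34.4, 35.5 and 34.3 FPKM to 44.3, 45.7 and 45.6 (0.37, SE 0.03). PSPH, the last step, rose by 0.11, and this call was lost without any 1 of 4 libraries (C36 replicate 1 or 3, MinE07 replicate 2 or 3), with an adjusted p of up to 0.0746.

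CTH, the last enzyme of transsulfuration, was at 4.24, 4.37 and 4.04 FPKM with MinE07 and 2.77, 2.85 and 2.87 with C36, and vehicle was close to C36 at 2.92 to 3.15 (0.50, SE 0.05, adjusted p = 2.5e-05). The proline enzyme PYCR1 rose by 0.22, while ALDH18A1, the step before it, was at 11.7 to 13.0 against 11.4 to 12 FPKM and was not called. The mitochondrial folate enzymes SHMT2 and MTHFD2 had changes of 0.08 and 0.07 from C36, below the threshold.

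Transport genes split. SLC6A9, the glycine transporter, had the largest change of the 36 genes. It was at 6.71, 7.95 and 7.42 FPKM with MinE07, 3.95, 3.74 and 3.61 with C36, and 3.35, 3.00 and 3.36 with vehicle. MinE07 lay 1.84-fold above C36 on the log2(FPKM + 0.5) scale (0.88, SE 0.06, adjusted p = 4.45e-06). SLC7A11 moved the other way, from 4.35, 3.94 and 3.97 FPKM with C36 to 2.73, 2.79 and 2.54 with MinE07, a fall of 0.52 (SE 0.05, adjusted p = 3.05e-05). Vehicle, at 3.24 to 3.32 FPKM, lay between the aptamers without overlap. SLC7A5, SLC3A2 and SLC7A1 were not called.

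Of 11 tRNA synthetases, 9 rose and 0 fell, by small amounts that exceeded the spread. CARS1 (cysteine) changed most, from 5.55, 5.20 and 5.33 FPKM with C36 to 7.33, 8.06 and 7.73 with MinE07 (0.48, SE 0.05, adjusted p = 5.29e-05). A further CARS1 entry had a median 105.7% of the gene's, and the call held with the entries summed. The other 8 were AARS1, GARS1, WARS1, SARS1, MARS1, EPRS1, YARS1 and TARS1, with changes from 0.14 to 0.23. IARS1 (8.88 to 9.30 against 9.08 to 10.6 FPKM) and NARS1 (20.0 to 20.3 against 19.4 to 20.4 FPKM) overlapped between groups, although both have the TGATGCAA core shown above. A further IARS1 entry had a median 82.5% of the gene's, so the IARS1 levels printed may be part of its signal. Of the 11 genes with the core, 7 rose, 0 fell and 4 were not called; of 18 tested genes with a promoter and no core, 10 rose, 2 fell and 6 were not called.

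**Figure D2:**
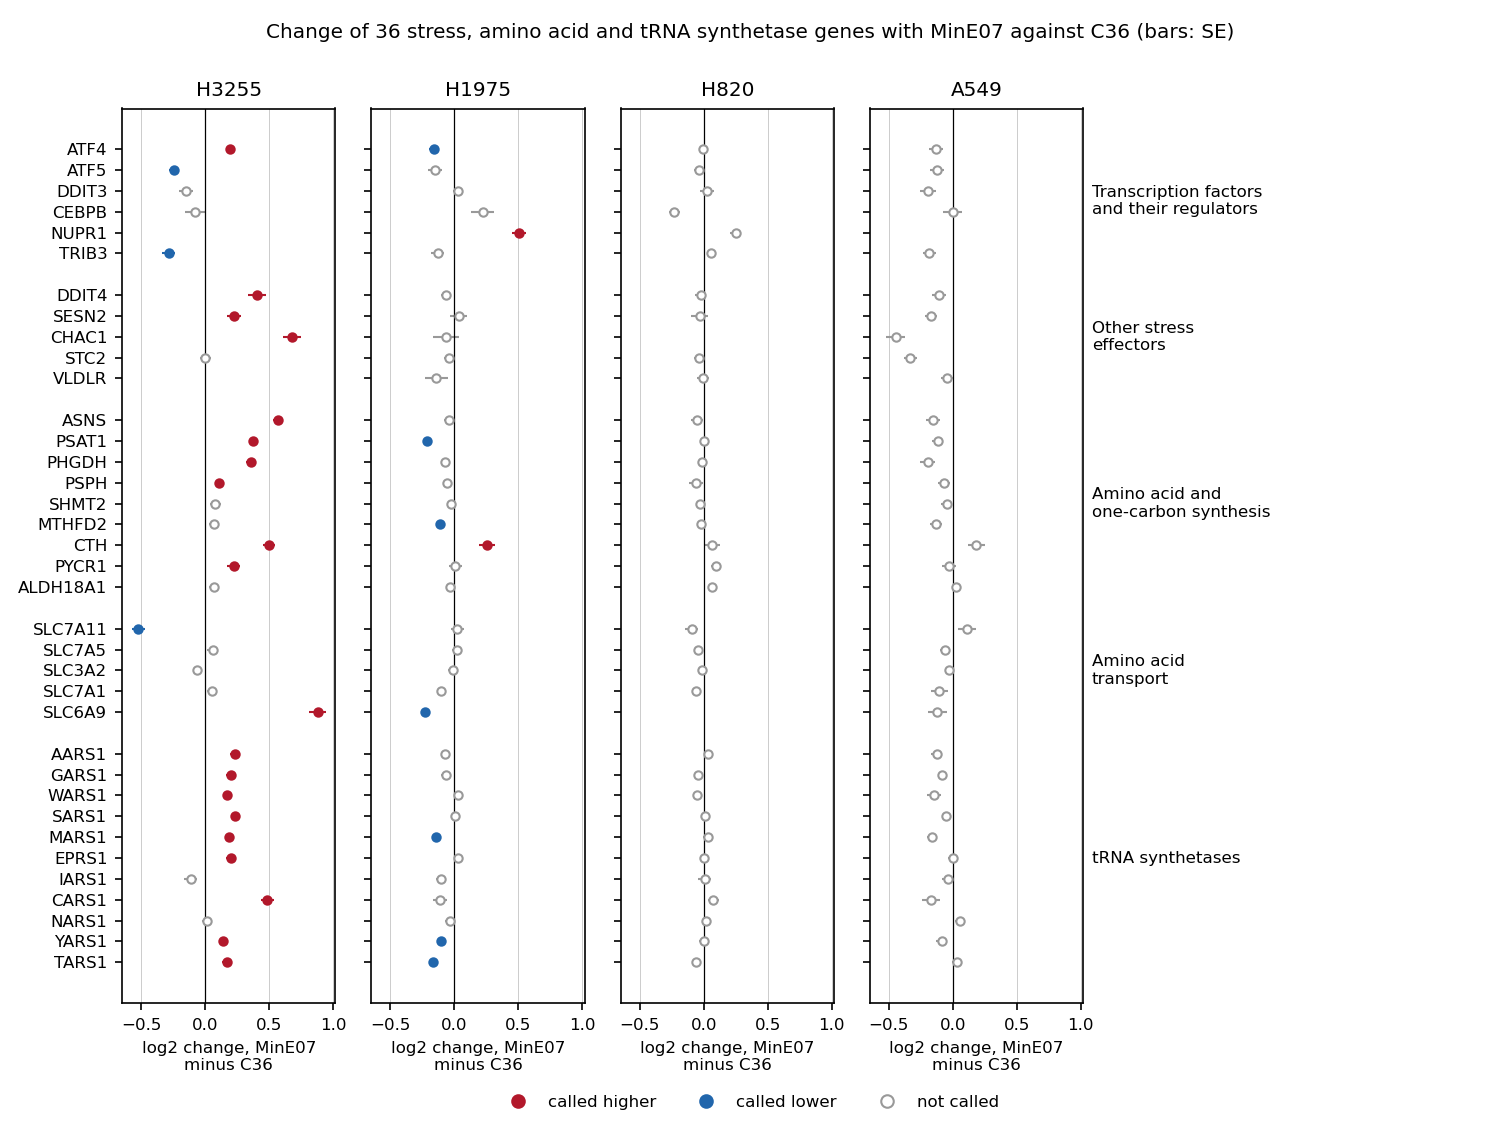
Change of each gene between MinE07 and C36 in the 4 lines. The horizontal axis is the difference of log2(FPKM + 0.5), bars are SE, filled red points were called higher, filled blue points lower and open points were not called. In H3255 9 of 11 synthetases and 6 of 9 synthesis enzymes are called higher, while H820 and A549 have no filled point.

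Against vehicle, the same MinE07 libraries of H3255 gave 24 higher and 2 lower (76.5% called, where 38.6% of all genes were, 21.4% higher and 17.2% lower). The calls against C36 held against vehicle for 20 genes that rose and 2 that fell, SLC7A11 and ATF5. The largest rises were SLC6A9 (1.07), CHAC1 (0.85), ASNS (0.81), CARS1 (0.66), PHGDH (0.57) and PSAT1 (0.50). SHMT2 (0.17), MTHFD2 (0.21), SLC7A1 (0.18) and SLC7A5 (0.12) were called higher against vehicle and not against C36. The SLC7A5 call (adjusted p = 0.0469) was lost in 5 of the 6 fits that left out 1 MinE07 or vehicle library, with an adjusted p of up to 0.166. C36 itself differed from vehicle for 1 gene, ASNS (0.24, adjusted p = 0.046), where 0.305% of all genes were called, but 23 of the 34 genes had all C36 libraries above all vehicle libraries, as did 17.1% of all genes. With the spread estimated over all 36 libraries, 11 were called higher with C36, where 1.7% of all genes were. The ASNS call was lost on leaving out any 1 library of the line other than MinE07 replicate 1 (adjusted p of up to 0.195 over its alternatives).

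**Figure D3:**
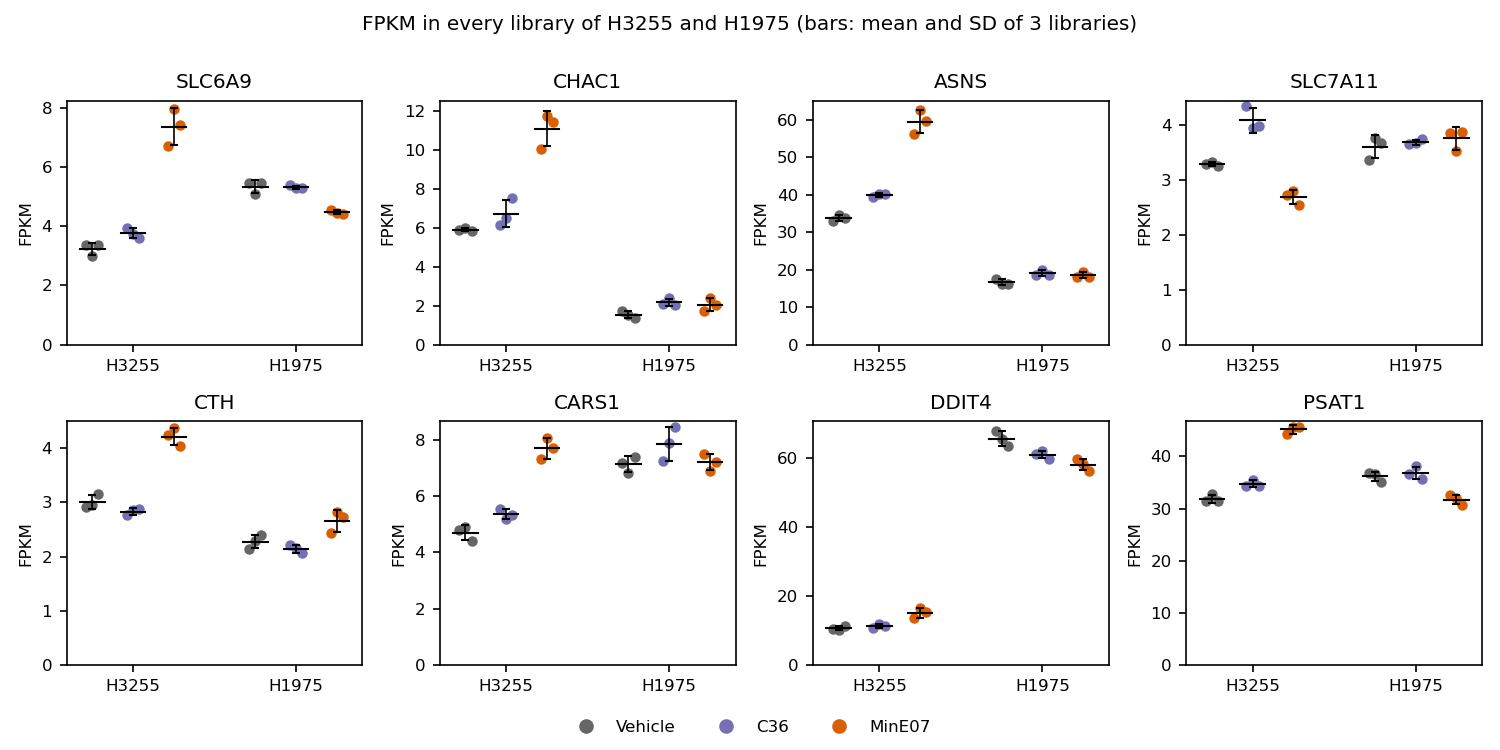
FPKM in every library of H3255 and H1975 for the 8 genes with the largest called changes in H3255. Points are libraries, coloured by treatment, and bars are the mean and SD of 3 libraries. SLC6A9 is higher with MinE07 in H3255 (6.71 to 7.95 FPKM) and lower with MinE07 in H1975 (4.42 to 4.56 FPKM).

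H1975, which also carries L858R, did not show the same pattern. Of 36 genes, 2 rose and 7 fell with MinE07 against C36 (25% called, where 19.9% of all 14183 genes were, 8.88% higher and 11.1% lower), and the median log2 change was -0.06 against -0.01 over all genes. NUPR1 rose most, from 1.60, 1.56 and 1.69 FPKM with C36 to 2.61, 2.35 and 2.55 with MinE07, with vehicle at 1.32 to 1.45 (0.50, SE 0.06, adjusted p = 0.00045). CTH rose from 2.21, 2.16 and 2.07 FPKM to 2.43, 2.82 and 2.73 (0.26, SE 0.06). The 2 groups did not overlap for either gene.

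The genes that fell against C36 in H1975 were SLC6A9, PSAT1, TARS1, ATF4, MARS1, MTHFD2 and YARS1, each by 0.23 or less. SLC6A9 was at 4.56, 4.44 and 4.42 FPKM with MinE07, 5.38, 5.30 and 5.28 with C36, and 5.47, 5.09 and 5.46 with vehicle (-0.23, SE 0.04, adjusted p = 0.0036). PSAT1 was at 32.6, 32.0 and 30.7 FPKM with MinE07, 36.6, 38.1 and 35.7 with C36, and 36.8, 36.7 and 35.2 with vehicle (-0.21, SE 0.04). For both genes MinE07 lay below both controls. ATF4, MARS1 and YARS1 were different, as MinE07 lay below C36 alone. ATF4 was at 101, 90.3 and 95.1 FPKM with MinE07, 104, 108 and 108 with C36, and 90.2, 90.2 and 87.7 with vehicle. It fell by 0.16 against C36 while remaining uncalled against vehicle (0.09, adjusted p = 0.12), since C36 lay 0.25 above vehicle (adjusted p = 0.044). MARS1 was at 21.4 to 22.2 FPKM with MinE07, 23.9 to 24.6 with C36 and 22.0 to 22.2 with vehicle. YARS1 was at 27.6 to 28.5 FPKM with MinE07, 29.8 to 30.6 with C36 and 28.2 to 28.6 with vehicle. For both, MinE07 overlapped vehicle. DDIT3 was at 18.4 to 19.7 FPKM with MinE07 and 17.8 to 19.1 with C36 and overlapped.

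The H1975 count was sensitive to single libraries, being 5 without C36 replicate 2 and 5 without MinE07 replicate 3. NUPR1, SLC6A9, PSAT1 and MARS1 kept their calls without any 1 library; ATF4, CTH, MTHFD2, TARS1 and YARS1 each lost theirs at least once, with adjusted p of up to 0.0811.

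Against vehicle in H1975, with the same MinE07 libraries, 6 genes rose and 5 fell (30.6% called, where 23.7% of all genes were, 10.8% higher and 12.9% lower). The calls against C36 held for 2 genes that rose, NUPR1 (0.68) and CTH (0.19), and for 3 that fell, SLC6A9 (-0.23), PSAT1 (-0.19) and TARS1 (-0.16). CHAC1 (0.32), DDIT3 (0.20), ASNS (0.15) and PHGDH (0.12) were called higher against vehicle alone, and DDIT4 (-0.17) and NARS1 (-0.13) lower. This count went from 11 to 7 without C36 replicate 1, MinE07 replicate 2 or MinE07 replicate 3, to 6 without vehicle replicate 3 and to 5 without vehicle replicate 2. CTH (adjusted p = 0.0499) lost its call in 5 of the 6 fits that left out 1 MinE07 or vehicle library (up to 0.154), and ASNS, CHAC1, NARS1, PHGDH and TARS1 lost theirs in at least 1. C36 differed from vehicle for ATF4 alone of the 36 (0.233% of all genes were called), and that call was lost without C36 replicate 1, 2 or 3, MinE07 replicate 3, or vehicle replicate 2 or 3.

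Across H3255 and H1975, 7 genes were called against C36 in both lines. CTH rose in both. ATF4, PSAT1, SLC6A9, MARS1, TARS1 and YARS1 rose against C36 in H3255 and fell against C36 in H1975. Of these, SLC6A9, PSAT1 and TARS1 were also called lower than with vehicle in H1975. ATF4, MARS1 and YARS1 were not, and for them C36 lay above vehicle in H1975. The difference between the lines was tested by an interaction term in 1 fit of all 36 libraries: 18 of the 36 genes had a higher change in H3255 and 2 a lower one (55.6% called, where 15.2% of all genes were, 6.74% higher and 8.48% lower). The largest were SLC6A9 (1.10, SE 0.10), CHAC1 (0.75, SE 0.12), ASNS (0.61, SE 0.07) and CARS1 (0.60, SE 0.08), all higher in H3255. ATF4 differed by 0.36 (SE 0.06, adjusted p = 4.63e-05). The 2 genes with a lower change in H3255 were SLC7A11 (-0.55) and NUPR1, which was near 0 in H3255 and whose difference (-0.41) was not called with a pseudocount of 0.1 (adjusted p = 0.249).

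H820 and A549 had 0 called genes of the 36 between MinE07 and C36, where 0.0364% and 0% of all genes were called. At an unadjusted p under 0.05 there were 5 of 34 in H820 and 17 of 35 in A549, against 1396 of 13753 and 1455 of 13425 genes. The medians were -0.01 in H820 and -0.11 in A549, where 17 of the 35 genes had all MinE07 libraries below all C36 libraries, as did 10.1% of all genes. With the spread of all 36 libraries, 8 genes were called lower with MinE07 in A549 (0.59% of all genes were), among them CHAC1 (-0.45, adjusted p = 0.00528), STC2 (-0.33), PHGDH (-0.20) and MARS1 (-0.16), and NUPR1 higher in H820 (0.25, where 0.048% of all genes were).

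In A549, C36 gave calls against vehicle and MinE07 gave 0, while the fit of this line gave 0 calls between the 2 aptamers. C36 was higher than vehicle for 11 of 35 genes and lower for 0 (31.4% called, where 6% of all genes were, 3.62% higher and 2.38% lower), with a median change of 0.13 against 0.01 over all genes. CHAC1 was at 7.21, 8.76 and 8.20 FPKM with C36, 5.39, 4.90 and 4.59 with vehicle, and 5.51, 6.08 and 5.71 with MinE07 (C36 minus vehicle 0.65, SE 0.08, adjusted p = 0.0047). DDIT3 was at 15.9, 17.6 and 17.8 FPKM with C36, 12.5, 11 and 10.6 with vehicle, and 14.4, 15 and 15.2 with MinE07 (0.57, SE 0.06). For both genes the 3 treatments did not overlap, with MinE07 in the middle. STC2 was at 9.33, 9.93 and 10.4 FPKM with C36, while MinE07 (7.42 to 7.95) and vehicle (7.31 to 7.96) coincided (0.36, SE 0.05).

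TRIB3 (0.33), PHGDH (0.31) and SESN2 (0.31) came next in A549, followed by WARS1, VLDLR, MARS1, SLC3A2 and AARS1 at 0.17 to 0.24. ATF4 was at 198, 220 and 213 FPKM with C36 and 189, 180 and 180 with vehicle, which did not overlap, but the difference was not called (0.20, adjusted p = 0.059). The 2 loci of DDIT3 and MARS1 overlap on opposite strands of chromosome 12 in GENCODE 29 (57516588 to 57521737 and 57475445 to 57517569), and the strand setting of the counting is not given in the sources used here. The count of 11 became 5 on leaving out C36 replicate 2, 4 on leaving out C36 replicate 3 and 6 on leaving out vehicle replicate 3; CHAC1, DDIT3, STC2 and SESN2 kept their calls without any 1 library. MinE07 against vehicle in A549 gave 0 of 35 calls and 6 at an unadjusted p under 0.05 (0.216% of all genes were called), and 2 calls without vehicle replicate 1. There DDIT3 was 0.38 higher than vehicle without overlap and missed the threshold (adjusted p = 0.051). MinE07 lay above vehicle for 28 of the 35 genes and below it for 7 (median change 0.04, against 0.02 over all genes). SLC3A2 was at 296 to 300 FPKM with MinE07 and 299 to 309 with C36, both above vehicle at 265 to 271.

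In H820, both aptamers differed from vehicle in a few genes. DDIT4 was at 40.5, 42.2 and 41.1 FPKM with MinE07, 40.6, 43.4 and 42.0 with C36, and 51.5, 57.8 and 50.9 with vehicle. The aptamer groups coincided and both lay below vehicle, with log2 differences of -0.37 for MinE07 (adjusted p = 0.00343) and -0.34 for C36 (adjusted p = 0.00643). ATF4 was at 69.2, 71.1 and 72.3 FPKM with MinE07, 71.9, 72.3 and 69.1 with C36 and 65.9, 62.0 and 63.9 with vehicle, and was called higher with each (0.15 and 0.15). CTH was at 7.82 to 9.13 FPKM with MinE07 and 7.47 to 8.75 with C36, above vehicle at 6.15 to 6.63 (0.38 and 0.31). Both DDIT4 calls held without any 1 library. ATF4 lost each of its calls in 4 of the 6 fits that left out 1 library of the groups compared (adjusted p of up to 0.118 with MinE07 and 0.119 with C36), and CTH lost its calls in 3 and 5 of the 6. DDIT3 was not called in any comparison in H820 (11.8 to 13.2 FPKM with either aptamer, 10.5 to 11.9 with vehicle).

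In all, 3 of 34 genes were called for MinE07 against vehicle in H820 (3.02% of all genes were) and 6 for C36 against vehicle (2.85% of all genes were). The other 3 with C36 were SLC3A2 (0.12) and SLC7A5 (0.11), which rose, and NUPR1 (-0.19), which fell to 6.99 to 7.25 FPKM from 7.80 to 8.57. Each of these 3 calls was lost in at least 5 of the 6 fits that left out 1 C36 or vehicle library. The MinE07 count went to 1 without MinE07 replicate 3 or vehicle replicate 2. The C36 count went to 1 without C36 replicate 1 or 2 or vehicle replicate 2 or 3, to 2 without MinE07 replicate 2 or vehicle replicate 1, and to 3 without MinE07 replicate 3. In 2 of the MinE07 libraries, replicates 1 and 2, 6 of 12 mitochondrial genes looked at were listed at 0, against 2 of 12 in the other libraries of H820. With both left out, MinE07 against vehicle gave 0 calls of the 34 with the same direction for its 3 genes (DDIT4 -0.37, CTH 0.36, ATF4 0.18), C36 against vehicle gave 2 calls, DDIT4 and CTH, and MinE07 against C36 again gave 0.

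**Figure D4:**
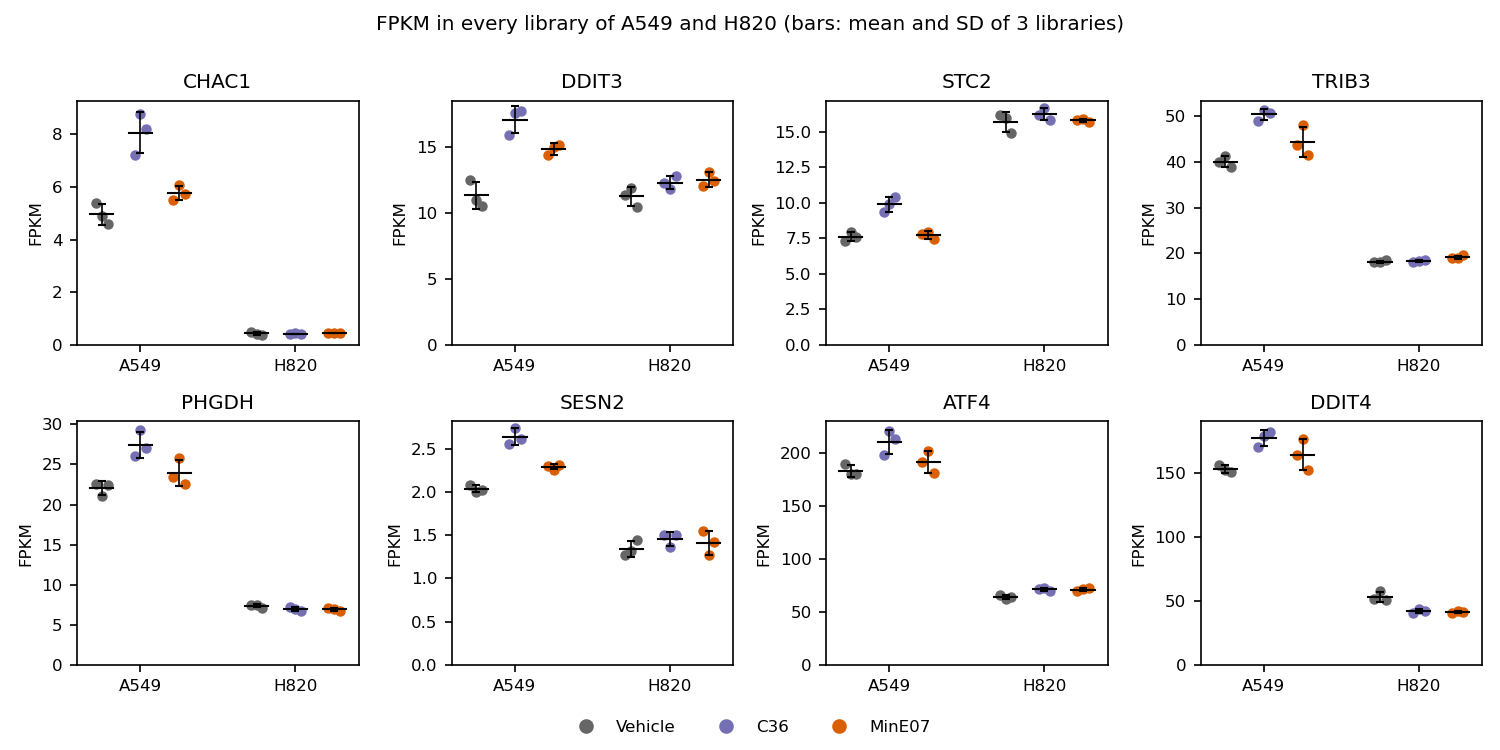
FPKM in every library of A549 and H820 for the 6 genes with the largest called changes between C36 and vehicle in A549, and for ATF4 and DDIT4. Points are libraries and bars are the mean and SD of 3 libraries. CHAC1 and STC2 are highest with C36 in A549 (7.21 to 8.76 and 9.33 to 10.4 FPKM), and DDIT4 is highest with vehicle in H820 (50.9 to 57.8 FPKM).

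Interaction terms compared the change between MinE07 and C36 in each EGFR-mutant line with that in A549. H3255 exceeded A549 for 22 of the 36 genes and fell below it for 1, SLC7A11 (63.9% called, where 25.2% of all genes were, 11.3% higher and 14% lower). The largest were CHAC1 (1.13, SE 0.12), SLC6A9 (1.00, SE 0.10), ASNS (0.72, SE 0.07) and CARS1 (0.66, SE 0.08). In A549 CHAC1 was itself 0.45 lower with MinE07 than with C36, so its term holds a change in each line. STC2 (0.34) and MTHFD2 (0.20) were among the 22 but not called in H3255 itself, beside -0.33 and -0.13 in A549. The other 20 were called higher in H3255 itself. Of these, PHGDH, MARS1, WARS1, AARS1 and PSAT1 were also lower with MinE07 in A549, by -0.20 to -0.12, so their terms hold a change in each line too. H1975 differed from A549 for 5 of the 36 (13.9% called, where 12.6% of all genes were): CHAC1 (0.38), STC2 (0.29) and WARS1 (0.17) had a higher term and TARS1 (-0.20) a lower one. None of CHAC1 (-0.07), STC2 (-0.04) and WARS1 (0.03) was called in H1975 itself, beside -0.45, -0.33 and -0.15 in A549, where C36 lay above vehicle. NUPR1 also had a higher term (0.49), but in A549 it was at 0.217 FPKM and was not tested, so it entered this fit only through the lines where it is high and its term restates its change in H1975. The CHAC1 call was lost in 8 of the fits that left out 1 library of these groups. This count was 3 without A549 C36 replicate 3. H820 differed for STC2 (0.30) and MARS1 (0.20), 2 of the 36 (0.323% of all genes were called). Their changes in H820 itself were -0.04 and 0.03, neither called, beside -0.33 and -0.16 in A549. The MARS1 call was lost in 29 of 36 fits that left out 1 library, and the STC2 call in 6.

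The remaining genes of the pathway were read from 7 further lists with 63 genes. In H3255 between MinE07 and C36, 14 of 60 tested rose and 20 fell, with a median of -0.04. This was 56.7% called, where 36.7% of all genes were, 16.6% higher and 20% lower. Among eIF2α kinases and phosphatase subunits, 2 of 7 rose and 4 fell, including PPP1R15A (GADD34), which recruits the phosphatase to eIF2α (-0.31). Of the 2 partner bZIP factors, CEBPG rose (0.14) and ATF3 fell, from 1.99, 1.78 and 1.68 FPKM with C36 to 0.625, 0.719 and 0.755 with MinE07 (-0.95, adjusted p = 3.51e-05). Vehicle lay between them, at 0.889 to 1.25 FPKM. ATF3 was called higher with C36 than with vehicle (0.61), where 0.305% of all genes were called. With MinE07, at levels under 1 FPKM, it was called lower than with vehicle by a smaller amount (-0.34). ATF3 reached the filter of 1 FPKM in H3255 only through its C36 libraries, so its calls there are a description only.

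Endoplasmic reticulum chaperone genes gave 2 higher and 1 lower of 7 (42.9% called, where 36.7% of all genes were). HERPUD1, a component of protein degradation at that membrane, went from 5.92 to 6.67 FPKM to 9.08 to 9.44 (0.53). Among other amino acid enzymes 4 rose and 3 fell of 10, among them argininosuccinate synthase, ASS1, which rose by 0.47. Of 6 other transporters 3 rose and 2 fell, with the neutral amino acid transporters SLC1A5 (0.29) and SLC1A4 (0.27) higher.

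The tRNA synthetases outside the list of 36 were read beside those in it in H3255, and no test compared the lists. Both lists were chosen with earlier results of these data known, so a difference between them is a description only. Of 12 other cytosolic synthetases and complex subunits, 1 rose and 7 fell, with a median of -0.14. Those in the list had 9 higher and 0 lower of 11 and a median of 0.18. Of all genes, 16.6% were called higher and 20% lower. EEF1E1, a scaffold protein of the multisynthetase complex (-0.31), and the valine enzyme VARS1 (-0.27) fell most, and the glutamine enzyme QARS1 rose (0.27). VARS1 went from 3.41, 3.36 and 3.32 FPKM to 2.70, 2.53 and 2.86. QARS1 went from 11.5, 10.7 and 11 FPKM to 13.5, 13.7 and 13.0. The TGATGNAA core was found in 0 of the 9 promoters matched for the other cytosolic list. Among all genes with a promoter the share was 4.46%, so 0 of 9 is near that background. A link between the core and these changes was not tested. Of 16 mitochondrial synthetases tested, 1 rose and 2 fell (median -0.03), and 1 of 14 promoters had the core.

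In H1975 this contrast between the lists was not seen in the medians. Synthetases in the list had 0 higher and 3 lower of 11 (median -0.07) and other cytosolic ones 1 higher and 5 lower of 12 (median -0.07). Mitochondrial ones had 0 higher and 1 lower of 16. Of all genes, 8.88% were called higher and 11.1% lower there. EEF1E1 (-0.39) and FARSA (-0.26) fell most. In A549 between C36 and vehicle, 6 of 62 further genes rose and 0 fell (9.68% called, where 6% of all genes were). PPP1R15A led them, at 51.9, 62.2 and 70.7 FPKM with C36, 27.4, 28.5 and 28.0 with vehicle and 44.2, 42.8 and 39.3 with MinE07 (C36 minus vehicle 1.11, adjusted p = 0.002), and ATF3 also rose (0.57). The 3 treatments did not overlap for PPP1R15A. In H820, 0 of 62 further genes were called between MinE07 and C36, where 0.0364% of all genes were.

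**Figure D5:**
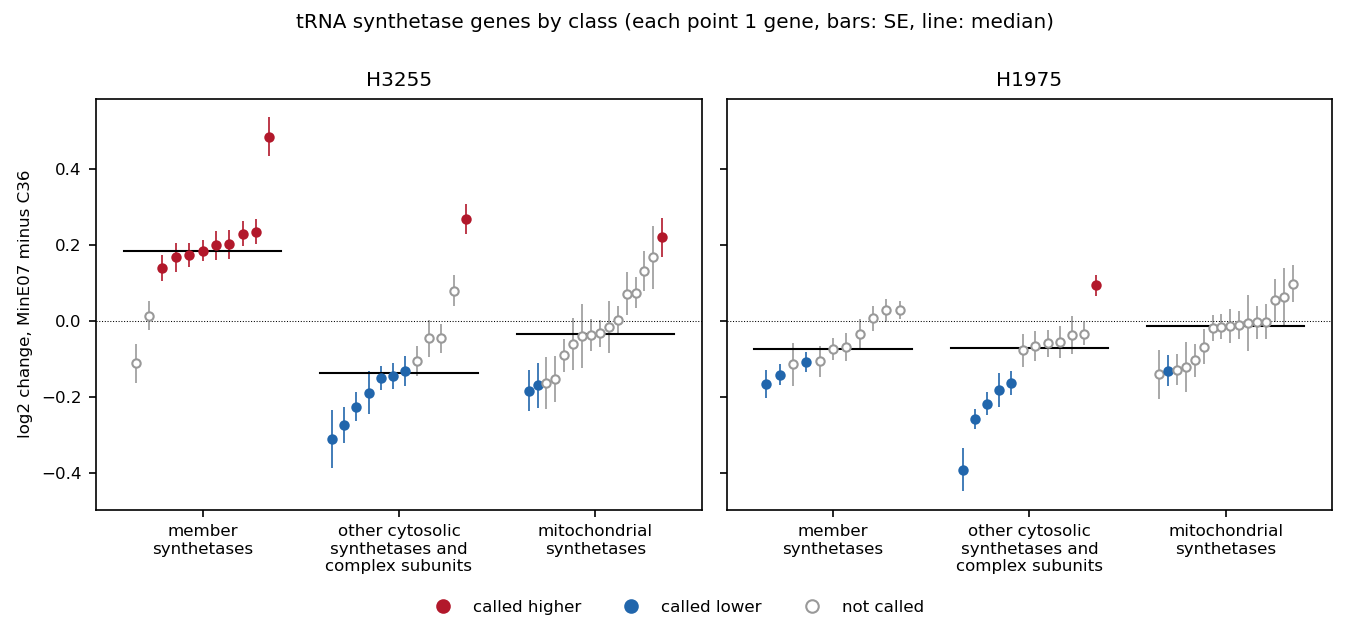
Change between MinE07 and C36 for tRNA synthetase genes by class in H3255 and H1975. Each point is 1 gene, bars are SE, black lines are medians of the class and the vertical axis is the difference of log2(FPKM + 0.5). In H3255 the synthetases in the list have a median of 0.18 and the other cytosolic ones of -0.14, while in H1975 both medians are -0.07. The lists were chosen with earlier results of these data known.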

How the data were processed

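The authors deposited FPKM per gene for each library. Per the submitters' processing notes, the tools were HISAT2 and Cuffdiff and the builds hg38 and GRCh38.p12, with no versions given. Per the labels' protocols, a stranded kit that selects poly-A RNA was used, with paired reads of 100 bases. Values were used as deposited.

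For each line, log2(FPKM + 0.5) of the 9 libraries was modelled by the means of the 3 groups with limma 3.58.1, using trend and robust moderation (statmod 1.5.0 under R 4.3.3), over genes with a mean of at least 1 FPKM. Interaction terms and vehicle levels came from 1 fit of all 36 libraries with 12 groups, over genes with a mean of at least 1 FPKM across the 36. P-values were two-sided and adjusted by Benjamini-Hochberg over all genes tested. The fits were tested on simulated data. Relative depth was read from the steps between low FPKM values. Python 3.11.15, pandas 2.3.3, numpy 2.4.6 and matplotlib 3.10.9 were used.

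The 36 genes and all lists were chosen with earlier results of these data known. Named genes were ATF4 and DDIT3 in every line, up to 8 of the largest called changes of MinE07 from C36 in H3255 and in H1975, up to 6 against vehicle per line, up to 4 per interaction term, the 3 highest and 3 lowest per line in vehicle, and up to 2 called per further list. Others are named to account for every gene of a group. Loci came from GENCODE 29 and promoters from RefSeq. Alternatives were the pseudocount, the filter, rescaling, a replicate block, moderation, the libraries fitted and, chosen after seeing the data, summed copies and leaving out 2 H820 libraries together.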

Additional observations from a re-analysis of the deposited data

Results flagged for a closer look

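These genes were selected because an interaction term called a difference between lines in the change from C36 to MinE07. H3255 exceeded A549 for CHAC1 by 1.13, SLC6A9 by 1.00, ASNS by 0.72 and CARS1 by 0.66. H3255 exceeded H1975 for SLC6A9 by 1.10, CHAC1 by 0.75, ASNS by 0.61 and CARS1 by 0.60. H1975 exceeded A549 for CHAC1 by 0.38 and STC2 by 0.29, and differed for TARS1 by -0.20. H820 exceeded A549 for STC2 by 0.30 and MARS1 by 0.20. CHAC1 in H1975 (-0.07), STC2 in H1975 (-0.04) and in H820 (-0.04) and MARS1 in H820 (0.03) were not called within their own line, and these terms hold the changes of A549, which were -0.45 for CHAC1, -0.33 for STC2 and -0.16 for MARS1. The term of NUPR1 for H1975 against A549 was 0.49, but NUPR1 lay below the filter in A549 (0.217 FPKM), so this term restates its change in H1975.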

How the results depend on the processing

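Counts of called genes kept within 1.5 times of the reported one under every alternative in H3255 for MinE07 against C36 (22 to 24 without 1 library) and against vehicle (24 to 26), for H3255 minus A549 (21 to 25), for H3255 minus H1975 (18 to 25) and for the vehicle levels (31 to 34 over the lines). All 23 and 26 calls of H3255 against C36 and vehicle remained under every alternative except 2 in each. No change reversed.

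The other counts moved. Without the filter, C36 against vehicle gave 0 in H3255, in H1975 and in H820, and 5 for A549, MinE07 against C36 gave 5 in H1975, MinE07 against vehicle gave 5 in H1975 and 1 in H820, and H820 minus A549 gave 1. With a filter of 5 FPKM, C36 against vehicle gave 6 in H3255 and 2 in H1975, MinE07 against vehicle gave 5 in H820 and 1 in A549, and H1975 minus A549 gave 3. Rescaling gave 3 for C36 against vehicle in H3255 and 1 for MinE07 against vehicle in A549. Without trend and robust moderation, C36 against vehicle gave 0 in H3255, 0 in H1975 and 1 in H820. A pseudocount of 0.1 gave 1 for MinE07 against vehicle in A549 and 1 for H820 minus A549, and a pseudocount of 1 gave 4 for the latter. In the fit of all 36 libraries, C36 against vehicle gave 11 in H3255, 5 in H1975 and 17 in A549, MinE07 against C36 gave 1 in H820 and 8 in A549, and MinE07 against vehicle gave 2 in A549. Leaving out MinE07 replicates 1 and 2 of H820 together, an alternative chosen after seeing the data, gave 0 for MinE07 against vehicle, 2 for C36 against vehicle and 1 for H820 minus A549; the MinE07 library left alone was assumed to vary like the other groups. The causes were not tested.

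Without 1 library, C36 against vehicle gave 0 to 3 both in H3255 and in H1975, 1 to 4 for H820 and 4 to 15 for A549. MinE07 against C36 gave 5 to 12 in H1975, 0 in H820 and 0 in A549. MinE07 against vehicle gave 5 to 10 for H1975, 1 to 3 for H820 and 0 to 2 for A549. The terms against A549 gave 3 to 6 for H1975 and 0 to 4 for H820.

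Libraries share only a replicate number: correlations of same-numbered deviations ran from -0.163 to 0.246, and no line had every pair over 0.1. With the replicate block, H3255 gave 24 for MinE07 against C36, C36 against vehicle gave 0 in H1975 and 2 in H820, and H820 minus A549 gave 1. No line had every library correlate best with its own number (4 of 9 libraries for H3255, 5 of 9 for H820 and 1 of 9 for both other lines). With no counts in the files, the depth behind a low value is not known.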
